A study of Homo sapiens with 4 samples.

Results

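The death-associated kinases DAPK1, DAPK2, DAPK3, STK17A and STK17B were examined in LNCaP, a line of human prostate cancer cells that respond to androgen, after exposure to exosomes, the small vesicles that cells shed, of the androgen-independent prostate cancer line PC-3. Every probe set that the array annotation assigns to exactly 1 gene, that gene being one of the 5, was taken, which gave 15 of 44988 single-gene probe sets. The series held 2 arrays of LNCaP cells given PC-3 exosomes and 2 arrays of LNCaP cells given PBS, the buffer control, all grown in the same medium with fetal bovine serum. Dose, exposure time and exosome preparation are not used here, and nothing in the labels says that the 2 arrays of a group came from separate cultures, so the spread between them may be technical. The number of arrays limits the precision. DAPK1 was chosen because it had fallen in this same contrast and the other 4 genes because they are its relatives, so the values of all 5 are given as a description, without a test.

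Death-associated kinases are serine/threonine kinases of the calmodulin-dependent kinase group. DAPK1 was isolated in a screen for genes needed for death of HeLa cells under interferon-gamma, and it carries a calmodulin-regulated kinase domain, ankyrin repeats and a death domain. The family is known for phosphorylating the myosin regulatory light chain, which drives membrane blebbing, and for roles in apoptosis and in autophagy through Beclin-1. The DAPK1 promoter is a CpG island that is often methylated in tumours.

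The promoters are shown because only 1 of the 4 DAPK1 probe sets was separated between the groups and DAPK1 has 2 annotated start regions. No probe set was assigned to a start region, and a link between probe sets and starts was not tested. DAPK2 and STK17B are the other genes with probe sets whose groups did not overlap, as was so for 37.7% of all probe sets. RefSeq windows on GRCh38.p14, from 250 bases before to 50 after a start, were found for all 5 genes, 6 windows in all. The windows of DAPK1, of DAPK2 and of STK17B follow, 5' to 3' along the gene. Capitals mark matches, on either strand, to the STAT site TTCNNNGAA, the IRF site GAAANNGAAA, the C/EBP site TTGCNNAA, the kappaB site, the ATF half-site TGACG and the CCAAT box.
DAPK1 first window, chr9:87497617-87497916 (+ strand): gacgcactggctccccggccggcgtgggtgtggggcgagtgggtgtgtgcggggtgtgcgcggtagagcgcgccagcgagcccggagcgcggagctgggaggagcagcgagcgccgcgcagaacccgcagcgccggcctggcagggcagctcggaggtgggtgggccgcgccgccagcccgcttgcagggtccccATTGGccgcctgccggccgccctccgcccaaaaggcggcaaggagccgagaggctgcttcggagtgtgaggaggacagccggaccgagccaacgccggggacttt
DAPK1 second window, chr9:87498332-87498631 (+ strand): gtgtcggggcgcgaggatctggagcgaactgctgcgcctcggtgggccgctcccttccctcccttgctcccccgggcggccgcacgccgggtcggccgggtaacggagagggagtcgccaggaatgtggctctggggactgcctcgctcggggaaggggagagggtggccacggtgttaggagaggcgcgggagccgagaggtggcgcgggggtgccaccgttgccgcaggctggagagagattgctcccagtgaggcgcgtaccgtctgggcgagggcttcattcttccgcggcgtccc
DAPK2 window, chr15:64046436-64046735 (- strand): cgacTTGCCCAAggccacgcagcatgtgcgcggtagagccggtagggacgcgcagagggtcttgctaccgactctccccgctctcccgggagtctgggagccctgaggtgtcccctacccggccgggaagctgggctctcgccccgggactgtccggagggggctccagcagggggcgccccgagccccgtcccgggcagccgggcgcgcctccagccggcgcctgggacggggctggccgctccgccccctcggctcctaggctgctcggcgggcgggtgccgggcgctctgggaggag
STK17B window, chr2:196171529-196171828 (- strand): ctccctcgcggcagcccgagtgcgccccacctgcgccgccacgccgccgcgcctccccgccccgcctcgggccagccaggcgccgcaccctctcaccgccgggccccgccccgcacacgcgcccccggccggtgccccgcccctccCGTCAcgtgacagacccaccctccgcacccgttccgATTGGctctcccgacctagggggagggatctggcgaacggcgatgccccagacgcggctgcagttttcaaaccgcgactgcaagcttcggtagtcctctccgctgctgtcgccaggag
In the first DAPK1 window the only such match was 1 CCAAT box, and the second window held 0 of these motifs. The C/EBP letters stood once in the DAPK2 window, and the STK17B window held 1 ATF half-site and 1 CCAAT box, with no overlap between the marked matches. Among all 35116 windows of the same length, 34.6% held a CCAAT box, 24.6% an ATF half-site, 10.5% the C/EBP letters, 7.66% the STAT letters, 5.91% the kappaB letters and 3.57% the IRF letters. The GC box GGGCGG, left in lower case, occurred 2 times in the first DAPK1 window and 1 time in the second, and 45% of all windows held one. The DAPK1 windows contained 37 and 33 CpG dinucleotides, against a median of 14 over all windows. The DAPK2 window contained 33 and the STK17B window 40. A match is a description of these letters and not a binding site, and a missing match says nothing about a factor.

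The labelled cell type was checked first. Of 10 LNCaP markers 7 were measured, from KLK3 at a mean intensity of 14098 to SLC45A3 at 475, and their summed intensity was 37609 and 38552 with PC-3 exosomes, against 37598 and 37704 with PBS. The summed intensity of 9 measured PC-3 markers was 975 and 1001 with PC-3 exosomes, against 1045 and 1021 with PBS, led by VIM at 538 and with CAV2 lowest at 17.8. Because the labels' extraction text speaks of brain tissue, 9 measured brain markers were summed too, at 2207 and 2208 with PC-3 exosomes, against 2100 and 2212 with PBS, from MBP at 816 to GAD1 at 43.0. Of these 25 markers 0 passed the limma test over all genes (smallest adjusted p 0.0972). At an unadjusted p under 0.05, 3 were higher and 3 lower, beside 5.76% higher and 5.16% lower of all genes. None was listed at 0. Their part in the results below was not tested.

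DAPK1, the calmodulin-regulated kinase that gives the family its name, was represented by 4 probe sets, and 1 of them carried its fall. Probe set 11720146_a_at, designed on a RefSeq mRNA, had a normalized intensity of 183 and 198 with PC-3 exosomes, against 307 and 315 with PBS. Its mean was 191 ± 10.8 with PC-3 exosomes, against 311 ± 5.67 with PBS (SD, n = 2 each). Both exosome arrays lay below both PBS arrays. The log2 fold change was -0.70 (SE 0.074), which is 1.63-fold lower with PC-3 exosomes. In a pool of cells, fewer cells that express a gene and less RNA per cell cannot be told apart.

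The remaining 3 DAPK1 probe sets showed no such gap. Probe set 11720147_a_at, designed on a different cDNA, had 140 and 131 with PC-3 exosomes, against 137 and 143 with PBS, and the groups overlapped. Its log2 fold change was -0.05 (SE 0.081), and it was brighter than the median probe set of each array, which lay between 111 and 112. The last 2 probe sets share 1 target cDNA. Of these, 11746545_a_at had 31.97 and 29.99 with PC-3 exosomes, against 32.9 and 29.8 with PBS (log2 fold change -0.02, SE 0.089), which is below the lower quartile of each array, 38.7 to 39.9. The dimmest, 11760470_at, had 18.7 and 19.0 with PC-3 exosomes, against 18.9 and 19.8 with PBS (log2 fold change -0.04, SE 0.072). That is close to the median of the 23 background control probe sets, which ran from 18.7 to 19.5 over the arrays, although single controls spread from 10.4 to 3750 and give no cutoff for a given probe set. Which exons each probe set reads is not given in the sources used here.

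**Figure D1:**
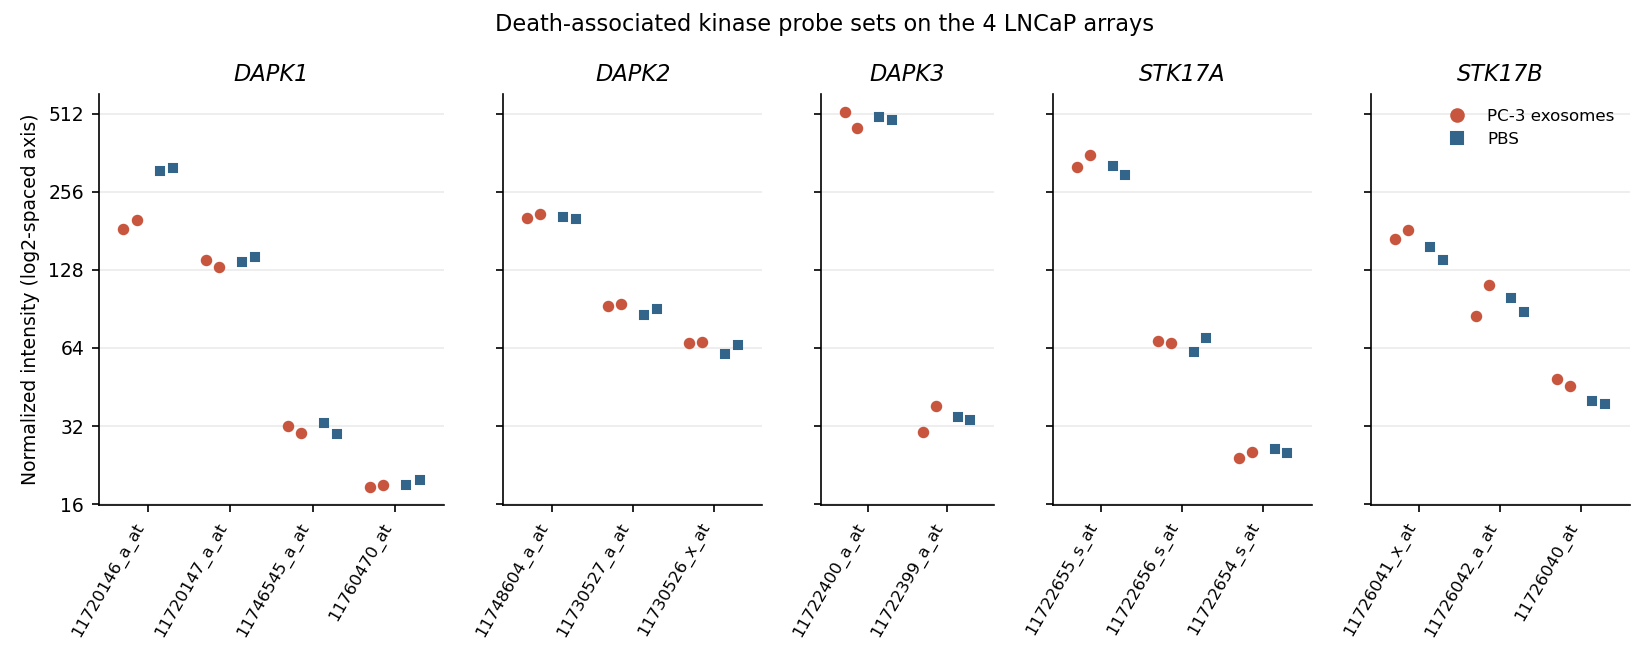
Normalized intensity (log2-spaced axis) of the 15 probe sets on the 4 LNCaP arrays, 1 panel per gene and brightest probe set first, with PC-3 exosome arrays as red circles and PBS arrays as blue squares. For DAPK1 11720146_a_at the exosome arrays sit at 183 and 198 and the PBS arrays at 307 and 315, while the other 3 DAPK1 probe sets overlap between the groups.

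In limma's fit of 1 probe set per gene, the one with the highest mean, 34 of 18132 genes (0.188%) passed an adjusted p under 0.05 in the lower direction, and 26 of these had further probe sets. In 18 of the 26 the lowest further probe set reached at least 50% of the gene's log2 fold change, and in 19 at least 1 further probe set was lower at an unadjusted p under 0.05. In the remaining 7, which were DAPK1, RNLS, CDCA3, CWF19L2, PEG10, HMGB2 and DSG2, no further probe set was. For DAPK1 the lowest of 3 further probe sets reached 7.15% of the change, and no other of the 26 was under 10%. HMGB2, a chromatin protein, reached 12.2% with 1 further probe set, and DSG2, a desmosomal cadherin, 17.8% with 2. DAPK1 was thus not alone in having no further probe set lower at that unadjusted p. ACKR3, an atypical chemokine receptor with a log2 fold change of -0.70 like DAPK1, had 3 further probe sets, all below 0, the lowest at -0.51. RIPOR2, an inhibitor of RhoA signalling, had -0.65 and 5 further probe sets below 0, the lowest at -0.55. DAPK1 was picked for the change of its brightest probe set, and these comparisons were chosen after the values had been seen and carry no test.

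**Figure D2:**
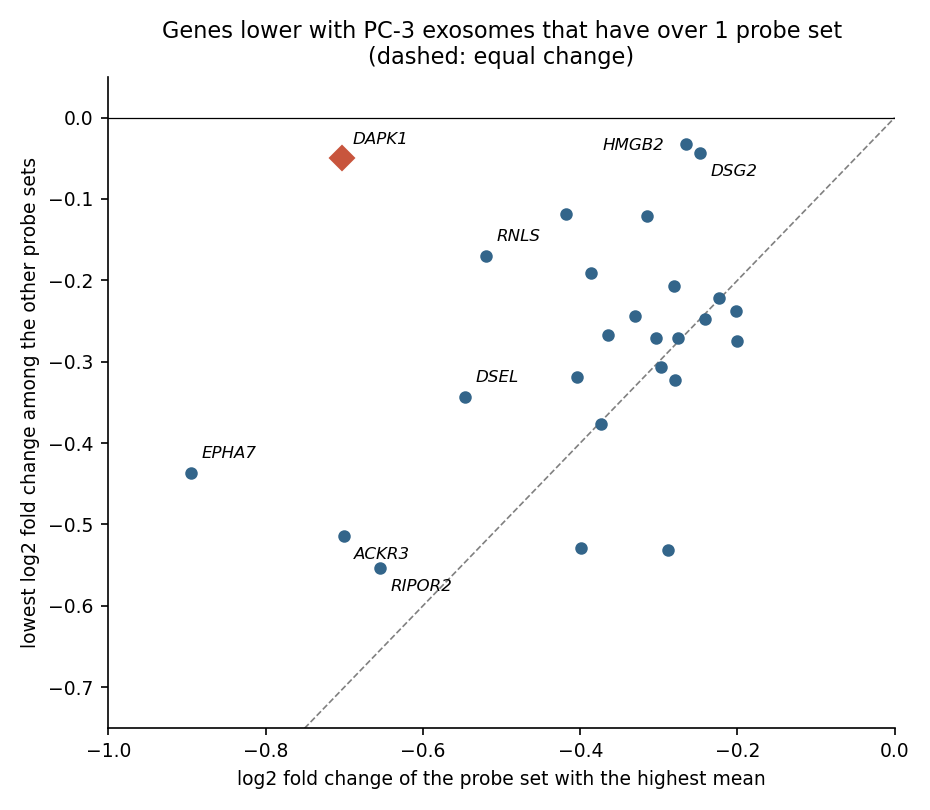
The 26 genes lower with PC-3 exosomes that have over 1 probe set: the log2 fold change of the probe set with the highest mean (x axis) against the lowest log2 fold change among the gene's other probe sets (y axis), with equal change on the dashed line. DAPK1 (red diamond) sits at -0.70 and -0.05 and HMGB2 and DSG2 at -0.03 and -0.04 on the y axis, while ACKR3 and RIPOR2, with falls of similar size, sit at -0.51 and -0.55 on the y axis.

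When a gene was summarised by the mean of all its probe sets, DAPK1 had a log2 fold change of -0.20 and was not past the threshold, against -0.70 for its brightest probe set. In the fit over all 44988 single-gene probe sets, 1 of the 15 kinase probe sets passed an adjusted p under 0.05, the DAPK1 one, beside 0.258% of all probe sets in either direction and 0.02% in the lower direction. Since DAPK1 was picked for that fall, nothing is read from the count. DAPK1 stayed lower when each array was left out in turn, at -0.76 to -0.65. Those 4 fits leave 1 array in a group, so only the size is given. Because DAPK1 was picked for its fall, no support is drawn from its passing the threshold in any fit of these arrays.

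DAPK2 is a smaller calmodulin-dependent relative without the death domain. All 3 of its probe sets were above 0, and all 3 were below 0 (-0.11 to -0.06) when arrays were centred on the poly-A spike-in controls. The brightest, 11748604_a_at, had 203 and 211 with PC-3 exosomes, against 205 and 201 with PBS, so that the groups overlapped (log2 fold change 0.03, SE 0.072). Probe set 11730527_a_at had 92.5 and 94.2 with PC-3 exosomes against 85.4 and 90.7 with PBS (0.08, SE 0.084). Probe set 11730526_x_at had 66.9 and 67.3 with PC-3 exosomes against 60.9 and 65.7 with PBS (0.08, SE 0.088). In these last 2 the exosome arrays were the higher ones without overlap, by no more than the SE of the difference. Groups did not overlap in 37.7% of all probe sets, in either direction.

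DAPK3, also called ZIPK, which phosphorylates myosin light chains and myosin phosphatase, had probe sets that overlapped between the groups. Its bright probe set 11722400_a_at had 518 and 452 with PC-3 exosomes, against 497 and 484 with PBS (log2 fold change -0.02, SE 0.077). The dim one, 11722399_a_at, had 30.5 and 38.2 with PC-3 exosomes, against 34.6 and 33.8 with PBS (-0.004, SE 0.11). In both, the 2 exosome arrays enclosed the 2 PBS arrays. Centring on the spike-ins gave -0.16 and -0.14.

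STK17A and STK17B, also called DRAK1 and DRAK2, share a kinase domain related to that of DAPK1 but lack its calmodulin-binding region, and STK17B is best known in T cells. For STK17B, 2 of 3 probe sets were higher on both exosome arrays, beside 37.7% of all probe sets whose groups did not overlap in either direction. Probe set 11726041_x_at had 169 and 183 with PC-3 exosomes against 156 and 140 with PBS, a log2 fold change of 0.25 (SE 0.089). Probe set 11726040_at had 48.6 and 45.6 with PC-3 exosomes against 40.00 and 39.1 with PBS, also 0.25 (SE 0.085). The third, 11726042_a_at, had 85.2 and 112 with PC-3 exosomes, against 99.4 and 88.3 with PBS (0.06, SE 0.13). Its exosome arrays stood 0.38 apart on the log2 scale, the widest gap between replicates among the 15 probe sets. None of the 3 passed the threshold, and centring on poly-A spike-ins left 0.11, 0.11 and -0.08 in the order given.

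STK17A had 3 probe sets of the kind whose name ends in _s_at, which in Affymetrix's naming can match more than 1 transcript. Probe set 11722655_s_at had 320 and 356 with PC-3 exosomes, against 322 and 298 with PBS (0.12, SE 0.080). The groups overlapped by a small margin, and the value was -0.02 after centring on the spike-ins. Probe set 11722656_s_at had 68.0 and 66.6 with PC-3 exosomes, against 61.9 and 69.7 with PBS (0.03, SE 0.094). The dimmest, 11722654_s_at, had 24.1 and 25.4 with PC-3 exosomes, against 26.1 and 25.2 with PBS (-0.05, SE 0.078). The groups overlapped in all 3.

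**Figure D3:**
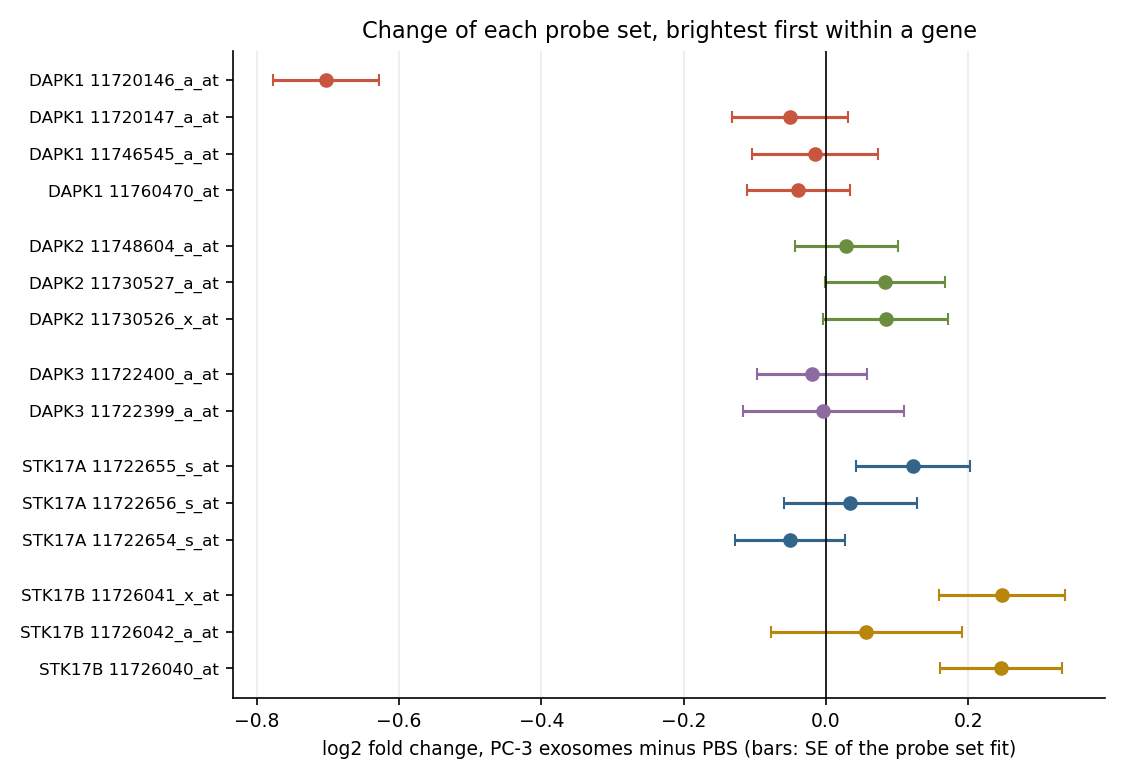
log2 fold change (PC-3 exosomes minus PBS) of each of the 15 probe sets with the SE of the probe set fit as bars, grouped by gene and brightest first. DAPK1 11720146_a_at lies at -0.70, and the other 14 lie between -0.05 and 0.25.

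Over the 15 probe sets the median log2 fold change was 0.03, beside -0.01 over all 44988, and 7 were below 0 and 8 above. The groups did not overlap in 5 of the 15, beside 37.7% of all probe sets. That share is near the background and is no result about the kinases. Leaving aside the DAPK1 probe set that fell, the other 14 ran from -0.05 to 0.25. The median SE was 0.084 for the 15 and 0.083 over all probe sets. Levels of different probe sets depend on the probes, so no order of level among the 5 genes is given.

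The genes whose pattern over the 4 arrays lay nearest to DAPK1 were sought among 9176 genes, by the root mean square difference of log2 values centred on each gene's own mean. A gene entered when the mean of its brighter group reached the median level of all genes, so a gene could enter through the group where it was high, as EPHA7 did through PBS. The nearest was ACKR3, at 0.047, with 374 and 395 with PC-3 exosomes against 590 and 663 with PBS. RIPOR2 followed at 0.072, with 523 and 499 with PC-3 exosomes against 813 and 797 with PBS. DSEL, a dermatan sulfate epimerase-like gene, stood at 0.097, EPHA7, an ephrin receptor, at 0.15 and TNFRSF19, a TNF receptor family member, at 0.15. Their log2 fold changes were -0.55 for DSEL, -0.90 for EPHA7 and -0.40 for TNFRSF19. All 5 were, like DAPK1, lower on both exosome arrays than on both PBS arrays. Because they were picked for likeness to DAPK1, this is no separate result. Groups did not overlap in 37.7% of all probe sets, in either direction. With 4 arrays in 2 groups, likeness mostly reflects the size of the difference between the groups and the small differences between replicates.

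**Figure D4:**
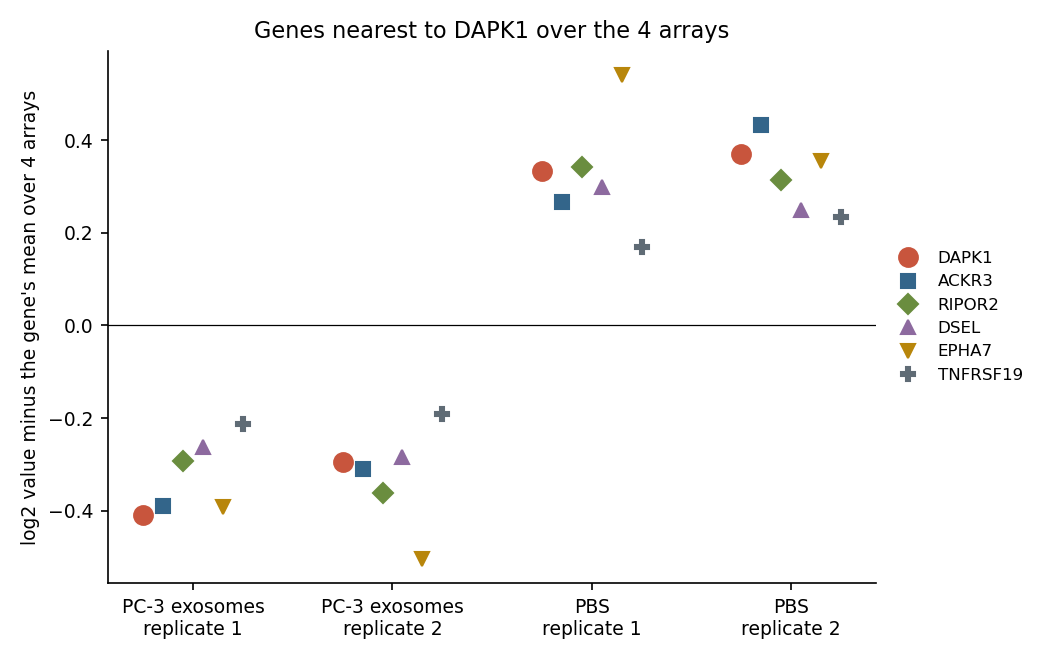
log2 value minus the gene's own mean (y axis) on each of the 4 arrays for DAPK1 and the 5 nearest genes. DAPK1 lies at -0.41 and -0.29 on the exosome arrays and at 0.33 and 0.37 on the PBS arrays, and ACKR3 lies closest to it.

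The genes around the kinases were taken as 12 lists of 164 genes, of which 145 were measured, and tested in the gene fit. Of the 145, 5 rose and 0 fell with PC-3 exosomes, beside 0.888% of all genes past the threshold, 0.7% that rose and 0.188% that fell. Without adjustment, at p under 0.05, 22 of the 145 were higher and 6 lower, beside 5.76% and 5.16% of all genes. The median log2 fold change of the 145 was 0.01, and -0.01 over all 18132 genes. On the scale centred on spike-ins the median of all genes moved to -0.15, and the genes past the threshold that were higher made up 15.5% in place of 78.9%. With that centring all 12 list medians were below 0, from -0.16 to -0.01.

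In the list of transcription factors and DNA methyltransferases tied to DAPK genes, 3 of 16 measured rose and 0 fell, with a median of 0.13, or -0.01 with spike-in centring. STAT3, a signal-dependent factor that acts downstream of cytokine receptors, had 1503 and 1539 with PC-3 exosomes against 1017 and 988 with PBS. It rose by 0.60 on the log2 scale (SE 0.048, limma adjusted p = 0.0011), and its 3 probe sets lay between 0.43 and 0.60. NFKB1, a subunit of NF-kB, had 679 and 671 with PC-3 exosomes against 552 and 519 with PBS, a rise of 0.34 (SE 0.059, limma adjusted p = 0.039). CEBPB, the C/EBP factor reported in mouse cells to drive DAPK1 under interferon-gamma together with ATF6, had 1034 and 1080 with PC-3 exosomes against 835 and 876 with PBS. Its rise was 0.31 (SE 0.054, limma adjusted p = 0.042). NFKB1 and CEBPB had 1 probe set each, so no further probe set could be set beside these values. In each of the 3 genes both exosome arrays lay above both PBS arrays. The 3 are named because they passed the threshold, and groups did not overlap in 37.7% of all probe sets, in either direction. After centring on the spike-ins the values were 0.46, 0.20 and 0.17. STAT3 stayed past the threshold there, while NFKB1 and CEBPB did not (limma adjusted p = 0.198 and 0.232), nor did they without a trend (0.196 and 0.236). ATF6 itself had 0.24 (SE 0.096, limma adjusted p = 0.400), and DNMT1, the maintenance DNA methyltransferase, -0.11 (SE 0.045, limma adjusted p = 0.401). The 3 ATF6 probe sets ran from -0.04 to 0.24 and the 2 of DNMT1 from -0.22 to -0.11.

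In the interferon-gamma pathway 1 of 12 measured genes rose and 0 fell, with a median of 0.11, or -0.03 with spike-in centring. IRF1, a factor induced by interferon-gamma, had 147 and 145 with PC-3 exosomes against 76.0 and 77.0 with PBS, a rise of 0.92 (SE 0.079, limma adjusted p = 0.0012). Like DAPK1 it rested on some of its probe sets: its 4 ran from -0.25 to 0.92, 3 of them above 0, and their mean was 0.22 and not past the threshold. IRF9, which pairs with STAT factors, had 0.36 (SE 0.068, limma adjusted p = 0.0501). The guanylate-binding proteins GBP1 and GBP2, classical interferon-gamma targets, had 0.40 and 0.39 (limma adjusted p = 0.140 and 0.0926). The GBP2 probe set was dim, with 22.6 and 22.7 with PC-3 exosomes against 18.1 and 16.1 with PBS, near the median of the background controls.

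Among partners of DAPK3, 1 of 9 measured rose and 0 fell. This was ATF4, a stress-induced factor that binds DAPK3, with 8638 and 8499 with PC-3 exosomes against 7594 and 7184 with PBS, a rise of 0.21 (SE 0.039, limma adjusted p = 0.045). ATF4 was measured by 1 probe set only. Its change was 0.07 after centring on the spike-ins and not past the threshold (limma adjusted p = 0.589). With any 1 of the 4 arrays left out, NFKB1, CEBPB and ATF4 were no longer past the threshold (0.29 to 0.38, 0.27 to 0.34 and 0.17 to 0.25). STAT3 and IRF1 were past it in all 4.

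On the deposited scaling no gene of the other 9 lists passed the limma test over all genes at an adjusted p under 0.05. The unadjusted counts of these 9 lists, here and below, stand beside 5.76% higher and 5.16% lower of all genes. Nothing is read from them. In the autophagy arm, BECN1, which encodes the Beclin-1 that DAPK1 phosphorylates, had 0.10 (SE 0.041), and ULK1, the kinase that starts autophagy, 0.10 (SE 0.074). The median of the 12 was 0.04, and without adjustment 1 was higher and 0 lower at p under 0.05. Among 19 regulators of DAPK1 protein the median was -0.02, with 4 higher and 0 lower at that unadjusted level. TSC1, of the complex that restrains mTOR, had 0.25 (SE 0.066) and RPS6KA3, a ribosomal S6 kinase, 0.23 (SE 0.072). Their probe sets ran from -0.09 to 0.25 and from -0.01 to 0.23. The 17 myosin and cytoskeletal genes had a median of 0.02, with 1 higher and 2 lower unadjusted. TPM1, a tropomyosin, had 0.13 (SE 0.041) and LIMK1, a kinase that acts on cofilin, -0.16 (SE 0.068). The probe sets of TPM1 ran from -0.20 to 0.32 and those of LIMK1 from -0.16 to 0.02.

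Among the calmodulin-dependent and myosin light chain kinases, the nearest relatives outside the family, 22 were measured with a median of -0.02 and 1 higher and 1 lower unadjusted. CASK, a scaffold kinase, had 0.21 (SE 0.063), and MYLK3, the cardiac myosin light chain kinase, -0.21 (SE 0.075). The 4 measured calmodulin-like genes had a median of 0.01 and 0 at an unadjusted p under 0.05, with CALML5 at 0.14 (SE 0.082) and CALML6 at 0.03 (SE 0.088). The 10 partners of DAPK2 and the DRAK kinases had a median of -0.02 and 0 unadjusted, with the 14-3-3 gene YWHAQ at -0.08 (SE 0.043) and CHP2, a calcineurin B homologue, at -0.13 (SE 0.089).

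The GAIT genes, which silence translation of selected mRNAs under interferon-gamma downstream of DAPK1 and DAPK3, had a median of 0.002 over 4, with 1 higher and 1 lower unadjusted. EPRS1, a tRNA synthetase, had 0.15 (SE 0.050) and SYNCRIP, an RNA-binding protein, -0.18 (SE 0.043). The 8 SYNCRIP probe sets ran from -0.21 to 0.16, with 7 below 0. SYNCRIP was past the threshold with spike-in centring (-0.32, limma adjusted p = 0.0254) and among features at or above the median level (limma adjusted p = 0.0496). Of 4 measured genes that came from the same death screen as DAPK1, with a median of 0.01 and 1 higher and 0 lower unadjusted, the lysosomal protease CTSD had 0.15 (SE 0.064) and the translation factor EIF4G2 -0.04 (SE 0.045). In the 16 caspases and core apoptosis genes the median was 0.02, with 0 higher and 1 lower unadjusted. BIRC5, the mitosis-linked inhibitor survivin, had -0.19 (SE 0.048) with 12 of 12 probe sets below 0. The death receptor FAS had 0.18 (SE 0.082), and its 2 probe sets lay at -0.10 and 0.18. With spike-in centring BIRC5 was past the threshold (-0.33, limma adjusted p = 0.00981). The lists were chosen with earlier results of these arrays known.

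**Figure D5:**
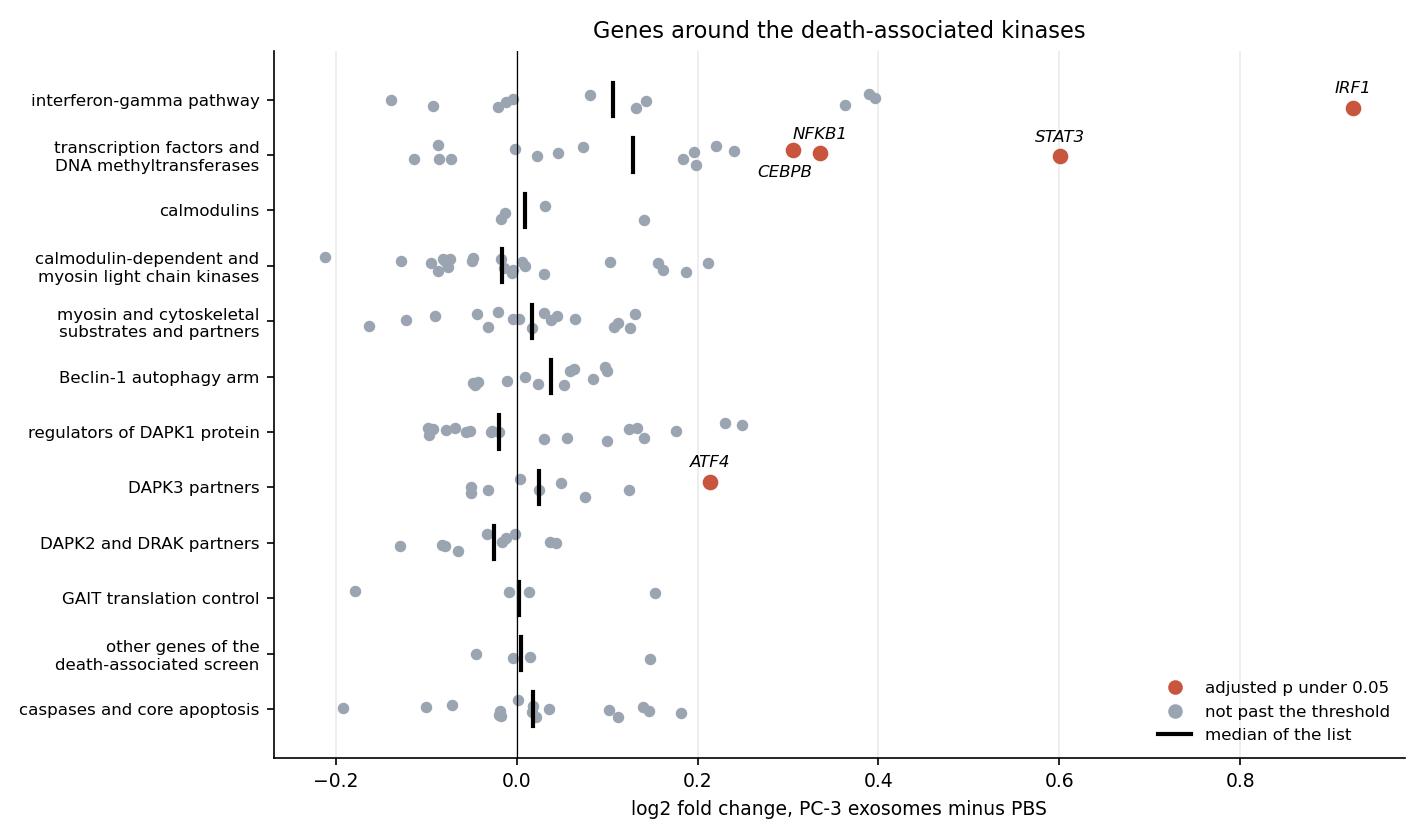
log2 fold change (PC-3 exosomes minus PBS) of every measured gene in the 12 lists around the kinases, 1 point a gene, with genes past an adjusted p of 0.05 in red and list medians as black bars. The 5 genes past the threshold, IRF1, STAT3, NFKB1, CEBPB and ATF4, all lie above 0.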

How the data were processed

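The normalized intensities were deposited by the authors on a linear scale, 1 value per probe set. Per the submitters' processing notes MAS5 and RMA were used, with no role, order or version given, and the array's genome build is likewise not given in the sources used here. Of 49395 probe sets, 102 were controls, 44988 were named to 1 gene, 1832 to several and 2473 unnamed, and the several-gene and unnamed ones were left out. Each intensity plus 1 was log2-transformed. No further normalization was applied.

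PC-3 exosomes minus PBS was fitted with limma 3.58.1 in R 4.3.3 (lmFit, eBayes with a trend, two-sided, Benjamini-Hochberg), once over the 44988 probe sets and once over 18132 genes, each by its probe set with the highest mean, with a threshold of 0.05. With 2 arrays a group, exact permutation cannot give a p under 0.333. Both fits were tested on simulated data.

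The members and lists were chosen with earlier results of these data known. All probe sets of the 5 kinases are named. From each list up to 4 genes past the threshold are named, otherwise the 2 of smallest p, and ATF6, DNMT1, IRF9, GBP1, GBP2 and the 6 genes other than DAPK1 whose further probe sets were not lower were added after their values were seen. The 5 genes nearest to DAPK1 are named, and of each marker list the brightest and the dimmest. Alternatives were other normalizations, centring on 24 poly-A spike-in probe sets, a pseudocount of 16, filters on dim features (the median and the 30th percentile), other variance models, the mean of a gene's probe sets, a replicate block and leaving out each array. Promoter sequences are from RefSeq. Figures were drawn with matplotlib 3.10.9.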

Additional observations from a re-analysis of the deposited data

How the results depend on the processing

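The fall of DAPK1 11720146_a_at kept its direction under every alternative run. Centring on poly-A spike-ins moved it, and DAPK1 in the gene fit, to -0.84, and taking the mean of a gene's probe sets moved DAPK1 to -0.20 (SE 0.063). With an array left out it was -0.76 to -0.65. The replicate number as a block gave the same -0.70, but DAPK1 was past the threshold there in neither fit, and without a trend only in the gene fit. Same-numbered arrays did not deviate together (r = -0.04 over genes), so the numbers are not taken as pairs.

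The counts of probe sets past the threshold, 107 higher and 9 lower, became 173 and 28 with quantile normalization and 185 and 34 among features at or above the median level. They were 10 and 0 without a trend and 0 and 0 with the replicate block. Spike-in centring gave 748 lower, and the 30th percentile filter 15 lower. Gene counts, 127 higher and 34 lower, became 60 and 326 with spike-in centring, 213 and 84 above the median level, 18 and 3 without a trend and 2 and 0 with the replicate block. There were 68 lower with quantile normalization and 57 lower above the 30th percentile. Among the genes of the lists, 5 higher and 0 lower became 2 and 2 with spike-in centring, 2 higher without a trend, 0 higher with the replicate block and 1 lower above the median level. With an array left out, probe sets were 0 to 4 higher and 0 lower, genes 28 to 40 higher and 4 to 7 lower, and list genes 2 higher. Fewer features tested or fewer arrays enter the filters and the left-out fits by construction. The cause of the other shifts was not tested. A lone array was assumed to vary like the other group. Dim DAPK1 probe sets near the background controls limit what they can show.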
